A study of Ovis aries with 12 samples.

Results

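Anterior mitral valve leaflets from sheep that had developed regurgitation 4 weeks after a heart attack were compared with leaflets taken before any infarction. The comparison used 6 of the 12 libraries of the series, chosen by their labels for time and regurgitation alone: 3 pre-MI libraries (replicates 2, 3 and 4) and 3 libraries from 4 weeks after myocardial infarction (MI) with ischemic mitral regurgitation, or IMR (replicates 2, 3 and 4). All animals were adult Dorset sheep. In the 4-week animals, the circumflex coronary artery's obtuse marginal branches had been tied off for good, which kills a block of the posterior wall of the left ventricle together with the papillary muscle there. Regurgitation was graded by echocardiography and was low-grade, per the series description. The pre-MI animals had no regurgitation, and the labels name no sham-operated group. Infarction, surgery, elapsed time and regurgitation therefore all differ between these groups and cannot be told apart in this comparison. The 4-week animals without IMR (n = 2) and the 8-week animals with IMR (n = 2) were used as further comparisons.

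The mitral leaflet is a thin sheet of collagen, proteoglycan and elastic fibre layers, held by valve interstitial cells and covered by valve endothelium. After a posterior infarct the papillary muscle is displaced and pulls on the leaflets, so that they close incompletely and blood leaks back into the atrium. Leaflets under such tension are known to thicken and to remodel their matrix, with activation of interstitial cells. The deposited table identifies genes by Ensembl sheep IDs without names, and 0 of those IDs matched the names table used here. Genes are therefore described by counts, sizes and levels, 4 of them by ID, and neither the tissue label nor the presence of other cell types was checked against marker genes. In whole leaflets, fewer cells of a type and less RNA per cell cannot be told apart.

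The 6 libraries held 12056543 to 17766607 counts, with counts on 15321 to 17296 of 25197 gene IDs. The test covered 14804 genes, which held 99.95% of all counts of the series.

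The libraries of the 4-week IMR group were not alike. Levels are given as CPM, that is counts scaled to a common library size after TMM adjustment, and distances between libraries as the share of the 14804 genes that differed by over 2-fold on the log2 CPM scale. Replicates 2 and 3 differed from each other in 14.7% of genes. Replicate 4 differed from them in 33.5% and 31.7% of genes, respectively. The same replicate 4 differed from pre-MI replicates 3 and 4 in only 15.4% and 13.8% of genes, so it lay nearer to those pre-MI libraries than to the other regurgitant leaflets. Among the pre-MI libraries, replicates 3 and 4 differed in 13.3% of genes, while replicate 2 stood further off, at 27.4% and 24.1%. Averaged over pairs, the distance was 29.6% between the groups (9 pairs, 13.8% to 42.4%), 26.7% within the 4-week IMR group (3 pairs, 14.7% to 33.5%) and 21.6% within the pre-MI group (3 pairs, 13.3% to 27.4%). The distances between the groups thus overlap those within either group. Counts from edgeR at a p under 0.05, unadjusted or adjusted, were therefore also computed without each compared library in turn. So were the counts of genes whose groups did not overlap or lay at least 1 log2 unit apart. The other counts below were not.

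**Figure D1:**
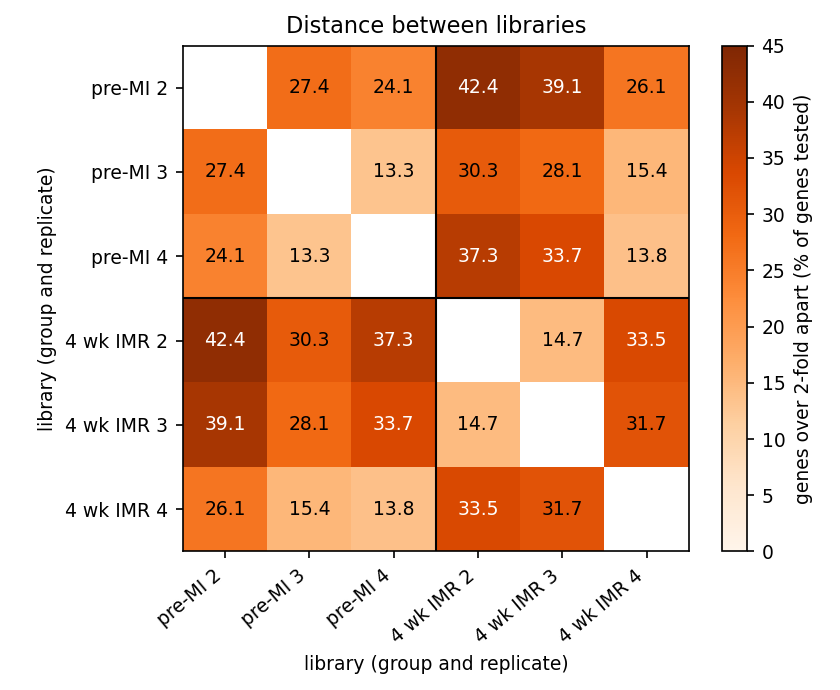
Share of genes tested, in percent, that differed by over 2-fold between each pair of the 6 libraries (rows and columns are libraries, lines separate the groups). Regurgitant replicate 4 is 33.5% and 31.7% away from the other regurgitant libraries and 15.4% and 13.8% away from pre-MI replicates 3 and 4.

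Measured from the mean of the pre-MI libraries, regurgitant replicate 2 had 2190 genes over 2-fold higher and 2833 over 2-fold lower. Replicate 3 had 1993 higher and 2232 lower. Replicate 4 had 1053 higher and 629 lower, which is 11.4% of genes against 33.9% for replicate 2 and 28.5% for replicate 3. All 3 libraries shared 373 genes over 2-fold higher and 139 over 2-fold lower, whereas 852 higher and 1463 lower genes passed that distance in replicates 2 and 3 and not in replicate 4. What replicates 2 and 3 had in common was thus weighted towards lower genes, and what all 3 libraries had in common towards higher genes. The median gene differed by 0.01 in replicate 2, 0.10 in replicate 3 and 0.0048 in replicate 4 on the log2 scale. TMM scaling brings the typical gene close to no difference, so these values are not a result about the leaflets.

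No gene passed the test between regurgitant and pre-MI leaflets. In edgeR's quasi-likelihood test, fitted to all 12 libraries, 0 of 14804 genes (0%) had an adjusted p under 0.05, with 0.575 as the smallest. Before adjustment, 1248 genes (8.43% of those tested) had a p under 0.05. Of these, 704 (4.76%) were higher and 544 (3.67%) lower in the regurgitant leaflets. With counts scaled by library totals alone, which moved the median of all genes to -0.17 on the log2 scale, the split turned to 345 higher and 480 lower. An unadjusted p under 0.01 was reached by 215 genes, 136 of them higher, and one under 0.001 by 16 genes, 11 of them higher. The higher genes at p under 0.05 had a median log2 fold change of 1.25 and the lower ones of -1.14. Of the same 14804 genes, DESeq2 passed 60 at an adjusted p under 0.05, limma voom with sample quality weights passed 2288, and limma voom without weights passed 0.

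The count depended on single regurgitant libraries. Without replicate 4, 3241 genes had an unadjusted p under 0.05, 1364 of them higher and 1877 lower, none of which passed the adjustment (smallest edgeR adjusted p 0.0583). Without replicate 2 the count was 411, without replicate 3 it was 609, and without pre-MI replicate 2 it was 722. The sample weights that limma voom estimated from the data were 0.382 for regurgitant replicate 4, 1.85 for replicate 2 and 2.83 for replicate 3, against 0.597, 1.61 and 2.63 for pre-MI replicates 2, 3 and 4. The 2288 of 14804 genes passed with those weights (985 higher, 1303 lower) come from a fit in which regurgitant replicates 2 and 3 and pre-MI replicates 3 and 4 weighed most. They included 57 of the 60 DESeq2 genes (95%), which are 2.49% of the 2288. All 60 DESeq2 genes, 44 higher and 16 lower, also had an unadjusted p under 0.05 in edgeR. These tests use the same counts, so their overlap is not independent evidence.

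**Figure D2:**
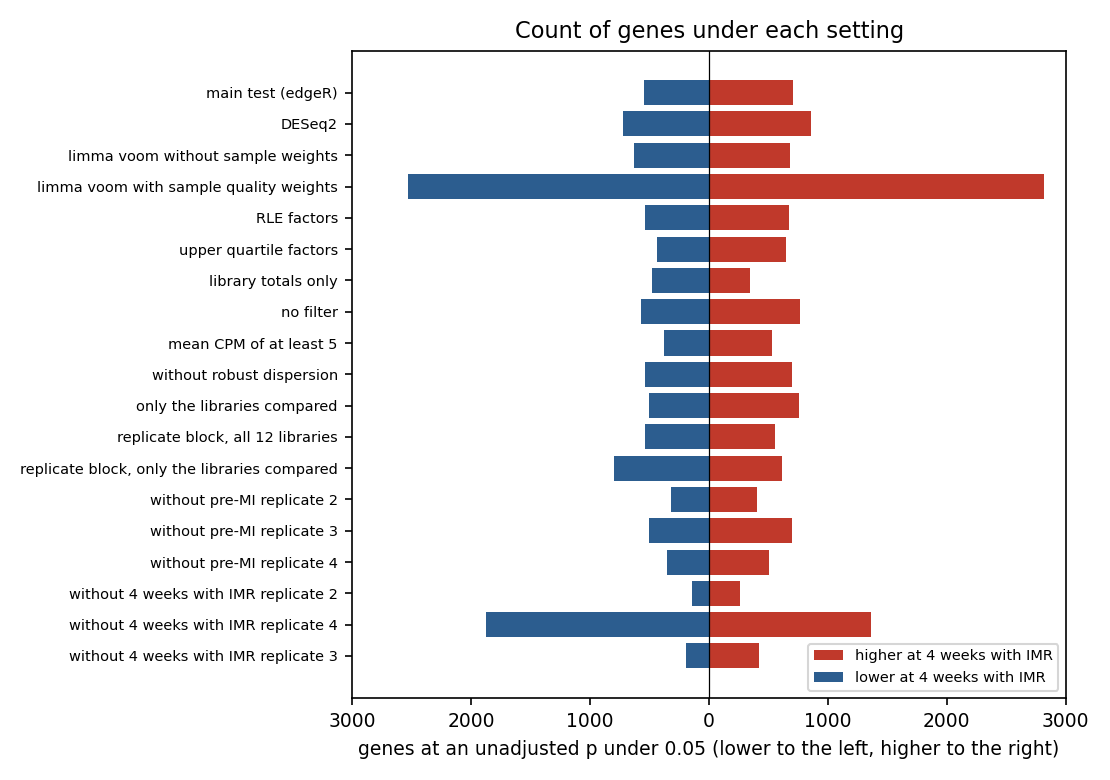
Number of genes with an unadjusted p under 0.05 between regurgitant leaflets at 4 weeks and pre-MI leaflets under each setting, with genes higher in the regurgitant leaflets to the right and lower ones to the left (linear axis, genes). The main test gives 704 and 544, sample quality weights give 2815 and 2534, and leaving out regurgitant replicate 4 gives 1364 and 1877.

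A different reading of the same libraries asked for how many genes the groups did not overlap at all. All 3 regurgitant libraries lay above all 3 pre-MI libraries for 1149 genes (7.76% of those tested) and below them for 1044 genes (7.05%). Of these 2193 genes, 904 also had an unadjusted p under 0.05 in edgeR, 479 higher and 425 lower. A further 344 genes had an unadjusted p under 0.05 although the groups overlapped. With 3 libraries per group, some genes would be apart even without a difference between the groups, and their share was not estimated. Without regurgitant replicate 4 the groups were apart for 3734 higher and 3608 lower genes. Without regurgitant replicates 2 and 3 in turn they were apart for 1491 and 1667 higher and 1167 and 1315 lower genes. Without pre-MI replicates 2, 3 and 4 in turn the counts were 2409, 2048 and 1644 higher and 1707, 1872 and 1516 lower. Fewer libraries make such a gap easier to reach, so a larger count here does not mean a clearer separation.

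A wide gap was rare. The lowest regurgitant library exceeded the highest pre-MI library by at least 1 log2 unit, that is 2-fold, for 55 genes (0.372% of those tested), and the reverse held for 24 genes (0.162%). The gap reached 2 log2 units for 3 higher and 3 lower genes. These counts moved with single libraries: without regurgitant replicate 4 they were 308 higher and 849 lower, without replicate 3 they were 133 and 51, and without replicate 2 they were 67 and 42. Without pre-MI replicates 2, 3 and 4 in turn they were 114, 218 and 204 higher and 52, 92 and 62 lower. With library totals in place of TMM factors they were 36 and 38. Most of these were scarce transcripts: the 55 genes had a median mean level of 1.57 CPM (0.259 to 205) and the 24 genes one of 1.77 CPM (0.449 to 271). Their log2 fold changes ran from 1.35 to 8.33 (median 2.92) and from -6.70 to -1.48 (median -2.48). These sizes follow in part from how the genes were chosen.

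**Figure D3:**
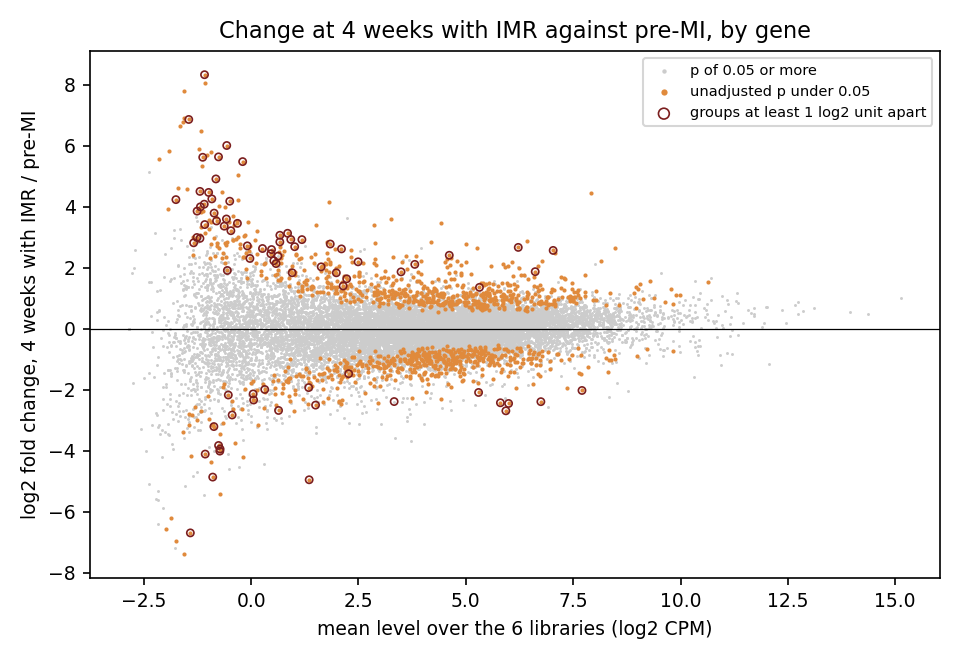
Log2 fold change at 4 weeks with IMR against pre-MI (vertical axis) for each of the 14804 genes tested, by its mean level over the 6 libraries in log2 CPM (horizontal axis). Orange points are the 1248 genes with an unadjusted p under 0.05, and circles are the 55 higher and 24 lower genes whose groups lie at least 1 log2 unit apart, most of them at low levels.

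The median of the 55 higher genes, as a log2 difference from the pre-MI mean, was 2.88, 2.29 and 2.48 in regurgitant replicates 2, 3 and 4. It was 2.10 and 1.45 in the 4-week libraries without IMR, 1.46 and 1.68 at 8 weeks with IMR, and 1.08 and 0.886 at 8 weeks without IMR. Replicate 4, so near to the pre-MI libraries over all genes, lay with the other regurgitant libraries for these, as the choice of genes requires. For the 24 lower genes the medians were -2.73, -2.24 and -2.14 in regurgitant replicates 2, 3 and 4, and -0.819 and -0.636 at 4 weeks without IMR. At 8 weeks they were -0.899 and -0.542 with IMR and -1.07 and 0.00995 without. Every group is set here against the same pre-MI libraries, which also chose the genes, so these values are a description without a test.

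**Figure D4:**
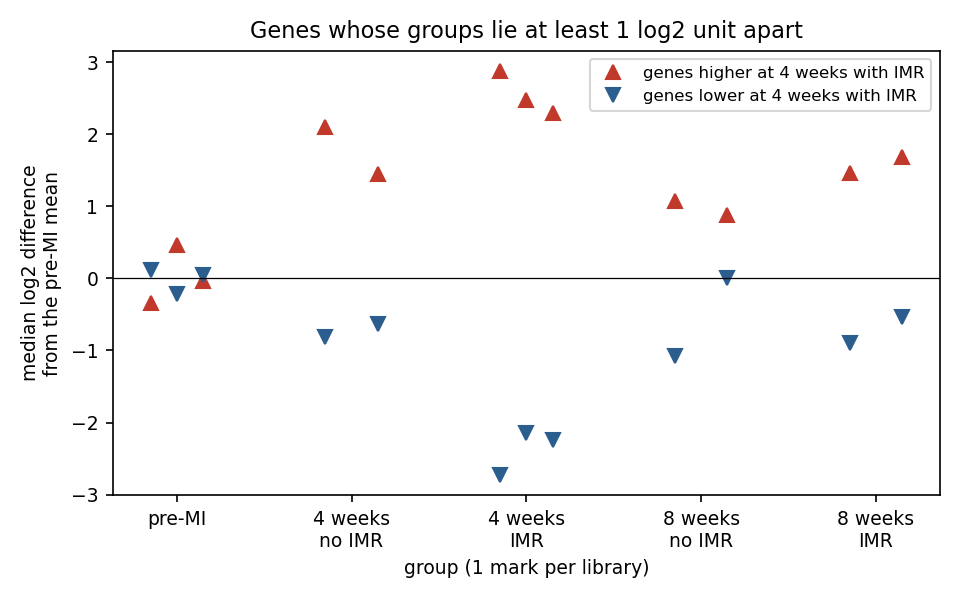
Median log2 difference from the pre-MI mean of the 55 genes higher (upward marks) and the 24 genes lower (downward marks) at 4 weeks with IMR, with 1 mark for each of the 12 libraries. The regurgitant 4-week libraries, by which the genes were chosen, lie at 2.29 to 2.88 and at -2.73 to -2.14, and the 4-week libraries without IMR lie at 1.45 and 2.10 and at -0.819 and -0.636.

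Genes detected in only 1 of the groups were few. In the whole table, 66 gene IDs had 0 counts in each pre-MI library and at least 1 count in each regurgitant library, and 22 had the reverse. Only 6 and 4 of them, respectively, had enough counts to be tested. None of the 66 reached 10 counts in all 3 regurgitant libraries, and 1 of the 22 reached 10 in all 3 pre-MI libraries. A count of 0 allows up to 3 counts, so at this depth absence before or after infarction was not distinguishable from a low level for nearly all of them.

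The share of genes at an unadjusted p under 0.05 changed little with abundance. In 4 classes of 3701 genes by mean level, it was 7.67% in the scarcest class (under 4.48 CPM), then 8.11% and 9.67%, and 8.27% in the most abundant class (over 47.6 CPM). Precision did change: the standard error of a gene's log2 fold change had a median of 0.83 in the scarcest class, 0.46 and 0.37 in the middle ones and 0.37 in the most abundant. In the most abundant class 192 genes were higher and 114 lower, and in the class below it 174 were higher and 184 lower. The spread between replicates, as the median standard deviation of log2 CPM (n = 3 each), was 0.492 in the regurgitant group and 0.397 in the pre-MI group. It was larger in the regurgitant group for 56.4% of genes. The scarcest class went the other way, with a median of 0.690 in the regurgitant group and 0.763 in the pre-MI group. In the other classes the regurgitant median was the larger.

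The most abundant gene of the series was the most abundant in each of the 6 libraries. It took 2.79%, 2.63% and 3.16% of counts in pre-MI replicates 2, 3 and 4, and 5.34%, 5.74% and 3.71% in regurgitant replicates 2, 3 and 4. The groups did not overlap, with regurgitant replicate 4 again nearest to the pre-MI libraries. Its log2 fold change was 1.02 (SE 0.62) with an edgeR adjusted p of 0.597, so the difference did not pass the test. This gene was singled out after its values had been seen.

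The 2 genes with the smallest p in each direction are given by library. Other genes had wider gaps between the groups. ENSOARG00000024133 had 171, 95.3 and 196 CPM in pre-MI replicates 2, 3 and 4 and 20.9, 36.2 and 27.3 CPM in regurgitant replicates 2, 3 and 4. Every regurgitant library lay below every pre-MI library, with 225 to 544 counts against 1949 to 2861. The group means were 28.2 ± 7.68 and 154 ± 52.6 CPM (SD, n = 3 each), a 5.48-fold lower level (log2 fold change -2.45, SE 0.39, edgeR adjusted p = 0.575). Replicate 4, near to the pre-MI libraries over all genes, lay between the other regurgitant libraries for this gene, which a choice by smallest p favours.

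ENSOARG00000022521 followed the same course. It had 287, 162 and 325 CPM in pre-MI replicates 2, 3 and 4 and 31.1, 68.0 and 47.9 CPM in regurgitant replicates 2, 3 and 4. The groups did not overlap, and the means of 49.0 ± 18.5 and 258 ± 85.3 CPM (SD, n = 3 each) differed 5.26-fold (log2 fold change -2.40, SE 0.40, edgeR adjusted p = 0.575). The ratio of its counts to those of ENSOARG00000024133 was 1.65 to 1.70 in the pre-MI libraries, 1.48 to 1.88 in the regurgitant ones and 1.39 to 2.08 over all 12. How reads shared between similar or overlapping genes were counted is not given in the sources used here, so these 2 IDs may not be independent measurements.

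Among the higher genes, ENSOARG00000012330 had 7.61, 14.6 and 11.6 CPM in pre-MI replicates 2, 3 and 4 and 97.6, 47.3 and 34.7 CPM in regurgitant replicates 2, 3 and 4. All 3 regurgitant libraries were above all pre-MI libraries, replicate 2 by far the most. The means were 59.9 ± 33.3 and 11.3 ± 3.52 CPM (SD, n = 3 each), with a 5.30-fold higher level (log2 fold change 2.41, SE 0.44, edgeR adjusted p = 0.575). Without replicate 2 its log2 fold change was 1.86.

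ENSOARG00000001001 was scarcer, with 1.05, 2.79 and 1.44 CPM (15, 57 and 21 counts) in pre-MI replicates 2, 3 and 4. It had 16.1, 8.51 and 8.09 CPM (173, 94 and 161 counts) in regurgitant replicates 2, 3 and 4. The groups did not overlap, and the means of 10.9 ± 4.51 and 1.76 ± 0.913 CPM (SD, n = 3 each) differed 6.13-fold (log2 fold change 2.61, SE 0.49, edgeR adjusted p = 0.575). None of the 4 genes passed the adjusted threshold in edgeR, while DESeq2 passed all 4 and so did voom with sample quality weights. Over all settings, their adjusted p ran from 4.36e-06 to 0.997 for ENSOARG00000024133, from 7.64e-06 to 0.997 for ENSOARG00000022521, from 9.70e-04 to 0.997 for ENSOARG00000012330 and from 0.00114 to 0.997 for ENSOARG00000001001. The log2 fold changes kept their sign under every setting tried. For genes chosen by smallest p whose groups do not overlap, leaving out a library could hardly reverse it, so this adds no support.

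**Figure D5:**
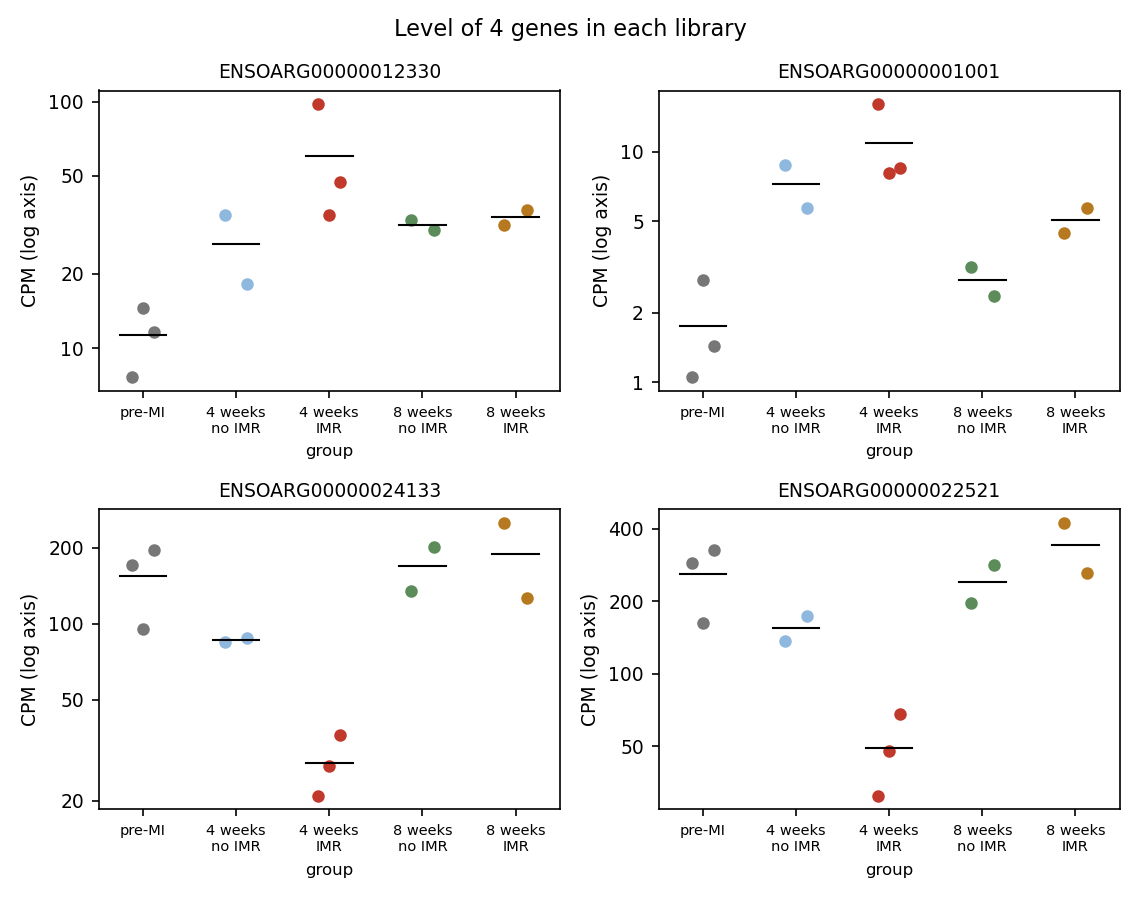
Level in CPM (log axis) of 4 genes in each of the 12 libraries by group, with 1 point per library and a line at the group mean. The 3 regurgitant 4-week libraries lie at 20.9 to 36.2 CPM for ENSOARG00000024133, below all pre-MI libraries (95.3 to 196), and at 34.7 to 97.6 CPM for ENSOARG00000012330, above all pre-MI libraries (7.61 to 14.6).

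Whether regurgitant leaflets differed from infarcted leaflets without regurgitation at the same time was tested directly, which is also the test of whether both groups had moved from pre-MI by different amounts. In edgeR 0 of 14804 genes passed (smallest adjusted p 0.637), and 1099 (7.42%) had an unadjusted p under 0.05, of which 552 were higher and 547 lower with IMR. DESeq2 passed 10 genes and limma voom, with or without sample weights, 0. Leaving out either library without IMR leaves 1 library in that group, so no count is given for those fits. The unadjusted count was 413, 485 and 3117 without regurgitant replicates 2, 3 and 4. With sample quality weights it was 2531 (982 higher). Replicate number 5 occurs in a single library, without IMR, and a replicate block gives that library a term of its own. The contrast then rests on 1 library without IMR, so no count is given for the block.

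Both lower IDs had fewer CPM in every regurgitant library than in either 4-week library without IMR, though neither difference passed the test. The IDs were chosen with the same regurgitant libraries, which in part fixes a low level there. ENSOARG00000024133 had 84.7 and 87.9 CPM in the 4-week libraries without IMR, above all 3 regurgitant libraries and below all 3 pre-MI libraries (log2 difference with IMR -1.61, SE 0.41, edgeR adjusted p = 0.637). ENSOARG00000022521 had 136 and 174 CPM there, also above all 3 regurgitant libraries (log2 difference with IMR -1.66, SE 0.42, edgeR adjusted p = 0.637). Its 174 CPM exceeded pre-MI replicate 3, at 162 CPM, so it overlapped the pre-MI range. For ENSOARG00000012330, the 4-week libraries without IMR had 34.6 and 18.2 CPM, of which the higher nearly met the lowest regurgitant library at 34.7 CPM (log2 difference with IMR 1.18, SE 0.48, edgeR adjusted p = 0.637). ENSOARG00000001001 overlapped between those groups, at 8.76 and 5.69 CPM without IMR (log2 difference with IMR 0.59, SE 0.52, edgeR adjusted p = 0.722).

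The comparison of regurgitant leaflets at 8 weeks (n = 2) with those at 4 weeks (n = 3) asked whether the level stayed where it was. In edgeR 0 genes passed (smallest adjusted p 0.308), and 438 (2.96% of those tested) had an unadjusted p under 0.05, of which 280 were higher and 158 lower at 8 weeks. DESeq2 passed 4 genes, all higher at 8 weeks, and gave 662 an unadjusted p under 0.05, while limma voom with or without weights passed 0. With sample quality weights, 2599 genes had an unadjusted p under 0.05, 1659 of them higher at 8 weeks. Leaving out 4-week replicate 4 passed 1 gene and raised the unadjusted count to 2226, while it was 112 without replicate 2 and 246 without replicate 3. Leaving out either 8-week library with IMR leaves 1 library in that group, so no count is given for those fits.

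The genes with the smallest p in that comparison were the lower IDs again. ENSOARG00000024133 had 251 and 126 CPM at 8 weeks with IMR, a log2 difference of 2.74 from 4 weeks (SE 0.42, edgeR adjusted p = 0.308). Both values lay above all 4-week libraries with IMR and overlapped the pre-MI range. ENSOARG00000022521 had 423 and 262 CPM, a log2 difference of 2.81 (SE 0.43, edgeR adjusted p = 0.308). At 8 weeks without IMR these genes had 135 and 202 CPM and 197 and 282 CPM, also within the pre-MI range or above it. The same 4-week libraries that chose these genes enter this comparison, so it does not add independent evidence of a low level at 4 weeks.

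In leaflets with IMR, the higher IDs moved less between 4 and 8 weeks than the lower IDs. ENSOARG00000012330 had 31.5 and 36.3 CPM at 8 weeks with IMR and 33.2 and 30.2 CPM without, all above the pre-MI libraries (8 weeks against 4 weeks with IMR, log2 difference -0.82, SE 0.48, edgeR adjusted p = 0.907). ENSOARG00000001001 had 4.42 and 5.69 CPM at 8 weeks with IMR, above all pre-MI and below all regurgitant 4-week libraries (log2 difference -1.10, SE 0.53, edgeR adjusted p = 0.907). Without IMR at 8 weeks it had 3.17 and 2.36 CPM, which overlaps the pre-MI range. The 4-week libraries that chose these IDs enter this comparison too, so it adds no independent evidence of a high level at 4 weeks.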

How the data were processed

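Poly-A RNA of flash-frozen anterior leaflets was made into NEBNext Ultra libraries, per the labels' protocols. The authors deposited raw counts per Ensembl sheep gene ID, with 1 column for each library, and kept genes without counts (4854 of 25197). The submitters' processing notes name Bowtie2 2.2.3, TopHat2 2.0.12 and HTSeq 0.6.1 without roles. Genome build, annotation release, strandedness and the handling of shared reads are not given in the sources used here. The series description and the labels disagree on how many animals had IMR, and the labels were used. No pair of libraries agreed within sampling noise (smallest chi-square per degree of freedom 45.1).

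Here, counts were scaled with TMM factors and filtered with filterByExpr in edgeR 4.0.16 (R 4.3.3). A robust quasi-likelihood model of the 5 groups was fitted to all 12 libraries (7 residual degrees of freedom, biological coefficient of variation 0.535), with Benjamini-Hochberg adjustment over all genes tested at 0.05. A standard error is the log2 fold change divided by the square root of F. Log2 CPM used a prior count of 2. Alternatives used DESeq2 1.42.0, limma 3.58.1, other scaling and filters, the libraries compared alone, the replicate number as a block, and each compared library left out. Distances between libraries and the wide gaps were defined after seeing the data. The model was checked on simulated counts. Figures used matplotlib 3.10.9.

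Named genes are the 2 higher and the 2 lower IDs with the smallest p in the comparison with pre-MI, since no table paired IDs with symbols. For want of symbols, the planned lists of matrix, valve cell and other cell type genes were not analysed here. The comparison and the lists were chosen with earlier results of these data known. Floors of 3 counts cover counting error only, since PCR reads are not independent molecules.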

Additional observations from a re-analysis of the deposited data

How the results depend on the processing

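For 4 weeks with IMR against pre-MI, the count passing an adjusted p of 0.05 was 0 under every edgeR setting, 0 in limma voom without weights, 60 in DESeq2 (782 genes had no adjusted p) and 2288 in limma voom with sample quality weights. DESeq2 passed 10 genes for IMR at 4 weeks and 4 for 8 against 4 weeks with IMR. Leaving out each library in turn, where no group was left with 1 library, gave 0 genes against pre-MI in edgeR. Under the same rule it gave 0 genes for IMR at 4 weeks and 0 to 1 for 8 against 4 weeks with IMR. The 1248 genes at an unadjusted p under 0.05 against pre-MI became 5349 with sample quality weights, 825 with library totals only, and 411 to 3241 when a library was left out. The genes whose groups did not overlap numbered 1491 to 3734 higher and 1167 to 3608 lower across those omissions. The cause of the DESeq2 and voom differences was not tested. A block on the replicate numbers in the titles gave 0 genes past the adjusted threshold against pre-MI. Unadjusted, it gave 1100 genes with all 12 libraries (558 higher) and 1420 with only the 6 compared (616 higher and 804 lower). The distance of regurgitant replicate 4 was 29.2% to 35.5% from replicates 2 and 3 on average and 8.64% to 16.2% from pre-MI replicates 3 and 4 over the scalings, filters and prior counts tried, which were chosen after seeing the data. The wide gaps numbered 13 higher and 10 lower when genes averaging under 5 CPM were left out, so that fewer were tested, and 35 higher with a prior count of 5. Deviations of same-numbered libraries correlated at -0.334, -0.245 and 0.0714, and not every library correlated best with its own number. With so few libraries per group, these values cannot decide whether same-numbered libraries shared more than a number.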
